A study of Mus musculus with 9 samples.

Results

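Insulin-like growth factor (IGF) ligands, their signalling receptor and their binding proteins were followed across 3 sorted cell populations of the resting mouse hair follicle. The set was taken by symbol and held 9 genes, Igf1, Igf2, Igf1r and Igfbp2 to Igfbp7, out of 12393 genes named on the array. A gene was tested if 3 or more of the 9 arrays read one of its probe sets above the median signal of that array. Of the 9 members 8 passed, among 7796 genes tested, and Igfbp2 did not. Each gene is given by its brightest probe set.

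The cells came from back skin of virgin female CD1 mice of genotype Lef1RFP/K14H2BGFP, which all groups shared. Dermal papilla cells, the mesenchyme at the follicle base, were sorted from a collagenase suspension as red, not green, and negative for CD45, CD117 and integrin alpha 7, and in the sample titles also for CD34. Hair germ cells were sorted from the trypsin suspension that followed, as green, CD34-negative and P-cadherin-high, and bulge cells from the same suspension as green, CD34-positive and P-cadherin-low. Each population was taken on postnatal days 43, 56 and 69, in early, middle and late telogen, the resting phase of the hair cycle, with 1 array per population and day. The populations thus differ in the enzyme step as well as in the gate, and the red and green signals report Lef1 and keratin 14 promoter activity. RNA went through 2 rounds of amplification. How many mice entered an array, and whether the populations of a day shared mice, is not stated in the sources used here. The design text asks which signals the dermal papilla sends to the epithelium and which genes respond in hair germ and bulge.

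IGF1 and IGF2 are secreted growth factors that signal through IGF1R, a receptor tyrosine kinase, mainly to the PI3K-AKT and MAPK arms. Most of either ligand outside cells is held by IGF binding proteins, which lengthen its life and limit its access to the receptor, and proteases that cut these proteins release it. In skin, IGF1 made by mesenchyme is known for acting on follicle keratinocytes and for prolonging hair growth. 

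Dermal papilla and keratinocyte markers followed the labels, while melanocyte genes were also read in hair germ, and leukocyte genes in hair germ and bulge. Of 10 dermal papilla markers 9 lay above the array median in every dermal papilla array, with a summed signal of 21905 to 27797, against 391 to 934 in hair germ and 239 to 303 in bulge. All 8 keratinocyte markers lay above the median in every hair germ and bulge array. In dermal papilla 2 to 6 of these 8 did, with a summed signal of 514 to 1562, against 38318 to 57141 in hair germ and 29162 to 31054 in bulge. All 8 bulge stem cell markers lay above the median in every bulge array, with a summed signal of 13931 to 16136. In hair germ 5 or 6 of the 8 did, with a sum of 4047 to 4488, and in dermal papilla 4 or 5, with 1691 to 2857. Dermal fibroblast markers were also high in dermal papilla, with 6 or 7 of 7 above the median and a summed signal of 15182 to 20161, against 240 to 983 in hair germ and 245 to 1331 in bulge. On days 43, 56 and 69 the bulge sum was 715, 245 and 1331. Of 7 leukocyte markers 4 or 5 lay above the median in bulge, 3 to 5 in hair germ and 0 to 2 in dermal papilla. The part of fibroblast and leukocyte markers in the results below was not tested. Median signals ran from 39.9 to 56.3 between arrays. The GAPDH 3'/5' ratio, which rises as RNA or cDNA is shortened, was above 6 in the day 43 dermal papilla array (6.62) and in the day 43 and day 69 hair germ arrays (8.34 and 7.90), and 2.97 to 5.09 in the other 6.

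All values are log2(signal + 16) of the deposited MAS5 signals unless called signals, so that a fold is on that scale and understates the change of a dim gene. Levels were compared between populations for 1 probe set at a time, never between genes. Differences between populations come from limma with population and day as terms, p-values are two-sided and adjusted over all 7796 genes by the Benjamini-Hochberg method, and 0.05 is the threshold. With 1 array per population and day, the days stand in for replicates, and any day effect that differs between populations adds to the error of these p-values.

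**Figure D1:**
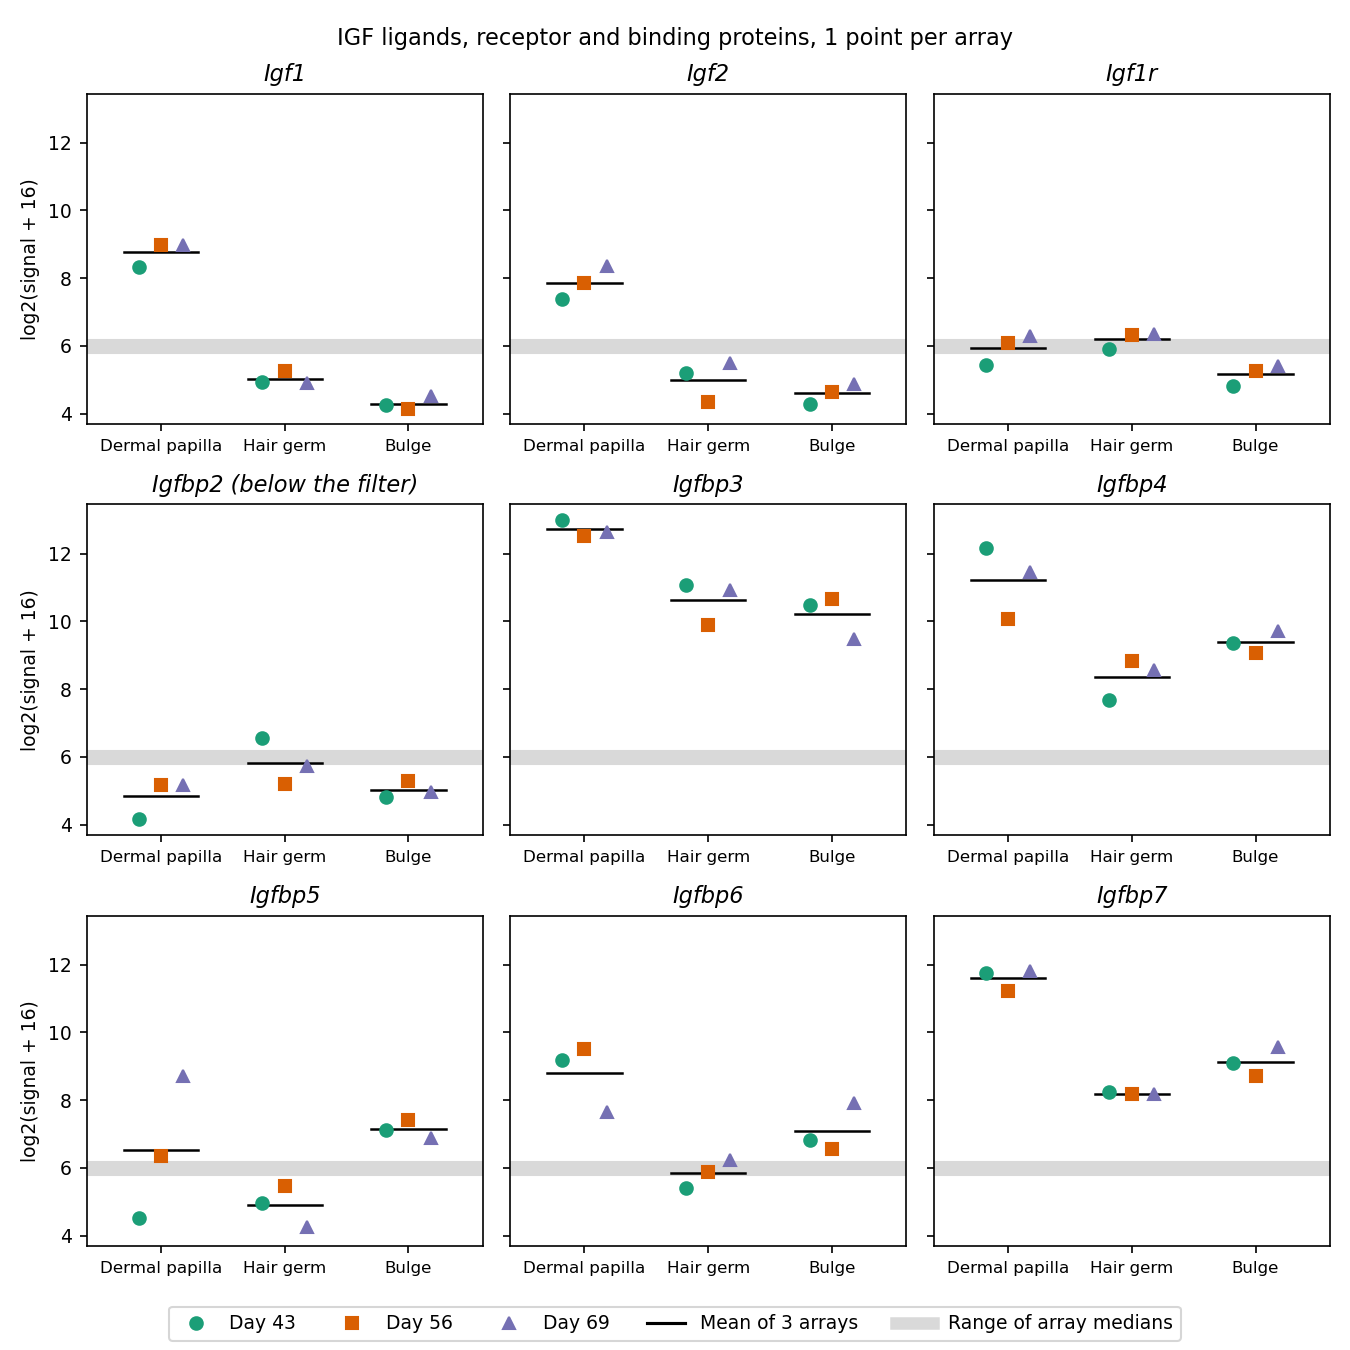
Level of each member on the log2(signal + 16) scale by population, with 1 point per array, day by colour and shape, the mean of 3 arrays as a line, and the range of the array medians as a grey band. Igf1, Igf2, Igfbp3, Igfbp4 and Igfbp7 lie higher in all 3 dermal papilla arrays than in any hair germ or bulge array, Igf1r lies near the band, and Igfbp5 in dermal papilla spans 4.54 to 8.72.

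Both ligand genes were high in dermal papilla and dim in both epithelial populations. Igf1 (probe set 1437401_at, chromosome 10), the main postnatal IGF ligand, stood at 8.34, 8.98 and 8.99 in dermal papilla on days 43, 56 and 69. It stood at 4.94, 5.26 and 4.90 in hair germ and at 4.24, 4.13 and 4.52 in bulge on the same days. The dermal papilla signals of 308, 488 and 491 lay far above their array medians, while those of hair germ, 13.9 to 22.4, and of bulge, 1.55 to 6.88, lay below theirs on every array. Igf1 was higher in dermal papilla than in hair germ by 3.74 ± 0.27 (SE), 13.3-fold (limma, adjusted p = 1.55e-06). Against bulge it was higher by 4.47 ± 0.27, 22.2-fold (limma, adjusted p = 4.05e-07). No dermal papilla array overlapped with either epithelial population, and the same direction held on all 3 days. In sorted bulk samples, more cells of a type and more RNA per cell cannot be told apart. The other 2 probe sets of Igf1 also passed the filter and gave the same calls, with differences of 3.16 and 2.76 from hair germ and of 2.63 and 2.74 from bulge. Like the brightest one, they passed the filter only through the 3 dermal papilla arrays, so these calls are no separate check. Between hair germ and bulge, Igf1 on its brightest probe set differed by 0.74 ± 0.27 with no overlap and an adjusted p of 0.083 (limma; 0.0239 with a pseudocount of 1), and the other 2 probe sets gave -0.53 and -0.02, so the probe sets disagree on any difference within the epithelium.

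Igf2 (1448152_at, chromosome 7), the imprinted fetal growth ligand, stood at 7.39, 7.85 and 8.35 in dermal papilla on days 43, 56 and 69. In hair germ the values were 5.19, 4.33 and 5.50, and in bulge 4.30, 4.65 and 4.87. All 3 dermal papilla arrays lay above all 6 epithelial ones, and no epithelial array reached its own median. The difference was 2.85 ± 0.31 from hair germ, 7.23-fold (limma, adjusted p = 3.13e-05), and 3.26 ± 0.31 from bulge, 9.56-fold (limma, adjusted p = 1.14e-05). Hair germ and bulge overlapped and differed by 0.40 ± 0.31 (limma, adjusted p = 0.406). A further Igf2 probe set, 1415931_at, lay above the median of 0 arrays, at 4.07 to 4.88, and thus gave no check.

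The receptor gene had another pattern. Igf1r (1426565_at, chromosome 7) stood at 5.44, 6.09 and 6.30 in dermal papilla, at 5.91, 6.33 and 6.34 in hair germ and at 4.83, 5.26 and 5.41 in bulge on days 43, 56 and 69. The 3 hair germ arrays and 2 of the dermal papilla arrays lay above their array medians, and none of bulge did. Igf1r in dermal papilla differed from hair germ by -0.25 ± 0.26, with a 95% interval of -0.82 to 0.31 (limma, adjusted p = 0.472), and the arrays overlapped. It was higher in hair germ than in bulge by 1.03 ± 0.26, 2.04-fold (limma, adjusted p = 0.0175), and higher in dermal papilla than in bulge by 0.78 ± 0.26, 1.71-fold (limma, adjusted p = 0.0360). Both calls sit near the threshold: quantile normalization moved the adjusted p to 0.0515 for hair germ and 0.0597 for dermal papilla, and leaving out any 1 of the 3 bulge arrays moved it to 0.0724 to 0.077 and to 0.102 to 0.127. The hair germ call was also lost without the day 43 or day 56 hair germ array (adjusted p = 0.0588 and 0.0571), and the dermal papilla call without any 1 dermal papilla array (0.0562 to 0.119). Without the day term the dermal papilla call was lost too, at an adjusted p of 0.0644. A second, dimmer probe set of Igf1r, 1452108_at, read 6.18, 5.59 and 5.82 in dermal papilla, 5.45, 5.52 and 5.51 in hair germ and 4.91, 4.97 and 5.22 in bulge, again lowest in bulge, but above the median on 1 array only.

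Igf1r on its brightest probe set was higher on day 69 than on day 43 in each population, by 0.62 ± 0.26 over all 3 (limma, unadjusted p = 0.0331, adjusted p = 0.68), which did not pass the test.

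The 250 bases before 1 transcript start each of Igf1, Igf1r, Igfbp4 and Igfbp7 are printed because these genes show the ligand, the receptor and the binding protein patterns side by side. They are RefSeq sequence of build GRCm38.p6, 5′ to 3′ on the gene's strand, at chr10:87860861-87861110 (Igf1, plus strand), chr7:67952007-67952256 (Igf1r, plus strand), chr11:99040994-99041243 (Igfbp4, plus strand) and chr5:77408046-77408295 (Igfbp7, minus strand). For Igf1r and Igfbp7 this start is the first base of the annotated gene, while for Igf1 and Igfbp4 the window lies inside the annotated gene, before a start further along it. Capitals mark motifs found on either strand. One is TATAAA, a core promoter element bound by the general transcription machinery. Another is GGGCGG, the box bound by SP1 and its relatives. Also searched was CTTTGAT, the core bound by LEF and TCF factors. No matches overlap in these windows.
Igf1: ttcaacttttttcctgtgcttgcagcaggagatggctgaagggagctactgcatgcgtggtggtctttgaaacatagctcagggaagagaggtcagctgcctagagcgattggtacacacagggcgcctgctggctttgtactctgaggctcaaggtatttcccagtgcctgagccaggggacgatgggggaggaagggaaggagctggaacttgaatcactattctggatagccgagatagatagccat
Igf1r: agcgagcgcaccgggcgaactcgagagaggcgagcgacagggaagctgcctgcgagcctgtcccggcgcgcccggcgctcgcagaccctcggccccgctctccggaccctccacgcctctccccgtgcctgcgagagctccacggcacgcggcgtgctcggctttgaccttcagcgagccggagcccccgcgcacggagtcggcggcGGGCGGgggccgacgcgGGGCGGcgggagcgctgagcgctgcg
Igfbp4: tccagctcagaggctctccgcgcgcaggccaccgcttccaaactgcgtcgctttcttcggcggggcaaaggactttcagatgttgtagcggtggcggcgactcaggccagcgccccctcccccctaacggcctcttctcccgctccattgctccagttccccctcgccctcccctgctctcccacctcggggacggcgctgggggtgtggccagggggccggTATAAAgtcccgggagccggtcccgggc
Igfbp7: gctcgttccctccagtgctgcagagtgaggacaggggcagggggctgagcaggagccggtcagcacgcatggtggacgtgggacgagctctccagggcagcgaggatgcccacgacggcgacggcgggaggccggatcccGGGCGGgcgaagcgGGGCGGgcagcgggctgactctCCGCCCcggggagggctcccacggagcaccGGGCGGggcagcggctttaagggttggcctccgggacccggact
The Igf1r window holds GGGCGG 2 times and the Igfbp7 window holds it 4 times, where 32.7% of all 32851 mouse windows of this length hold it at least once. The Igfbp4 window holds TATAAA from 28 bases before the start, where 12.4% of all windows hold that motif. The LEF and TCF core, CTTTGAT, is in no window of the 9 members and in 3.21% of all windows. The Igf1 window holds none of the 3. The windows of Igf1r, Igfbp7 and Igfbp4 have a GC content of 77.6%, 74.0% and 69.2% and that of Igf1 52.8%, against a median of 52.4% over all windows. The array did not measure binding or start sites, so these letters are a description of the windows only.

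Among the binding proteins, Igfbp3, Igfbp4, Igfbp6 and Igfbp7 were higher in dermal papilla than in both epithelial populations, while Igfbp5 passed neither test. Igfbp3 (1423062_at, chromosome 11), the main IGF carrier of serum, stood at 13.01, 12.52 and 12.65 in dermal papilla on days 43, 56 and 69. In hair germ it stood at 11.08, 9.89 and 10.92, and in bulge at 10.50, 10.65 and 9.49. All 9 arrays lay above their medians, so unlike the ligands this gene was measured well in the epithelium too. The difference was 2.10 ± 0.33 from hair germ, 4.27-fold (limma, adjusted p = 0.000501), and 2.51 ± 0.33 from bulge, 5.72-fold (limma, adjusted p = 0.000135), with no overlap. Hair germ and bulge overlapped and differed by 0.42 ± 0.33 (limma, adjusted p = 0.42).

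Igfbp4 (1437405_a_at, chromosome 11) encodes a binding protein known mainly for holding back IGF action. It stood at 12.17, 10.07 and 11.45 in dermal papilla on days 43, 56 and 69, at 7.69, 8.82 and 8.57 in hair germ and at 9.35, 9.07 and 9.71 in bulge. On this probe set every dermal papilla array lay above every epithelial one. The day 56 array, at signal 1060 against 4591 on day 43 and 2773 on day 69, was the lowest of the 3. The gene was higher in dermal papilla by 2.87 ± 0.44 against hair germ, 7.32-fold (limma, adjusted p = 0.000398), and by 1.85 ± 0.44 against bulge, 3.61-fold (limma, adjusted p = 0.00719). On the brightest probe set, hair germ lay below bulge on all 3 days by -1.02 ± 0.44, which did not pass (limma, adjusted p = 0.136). It did pass without the day 43 dermal papilla array (limma, adjusted p = 0.0412) or the day 56 hair germ array (limma, adjusted p = 0.0245). Without that dermal papilla array the difference stayed at -1.02, and only the shared error and the adjustment changed. Without that hair germ array it was -1.62. All 4 of its 6 probe sets that passed the filter were called higher in dermal papilla against both populations, and in all 4 the day 56 dermal papilla value was the lowest of the 3 days. On 1437406_x_at that value, 9.18, lay below bulge on day 69, at 9.47. Between hair germ and bulge, 1437406_x_at, 1423756_s_at and 1423757_x_at gave -1.36, -0.63 and -0.36, and none passed (limma, adjusted p = 0.0637, 0.507 and 0.684). On 1423756_s_at hair germ lay above bulge on day 56, at 8.03 against 7.36. On 1423757_x_at it did so on day 69, at 6.96 against 6.74.

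Igfbp7 (1423584_at, chromosome 5), which encodes a matrix protein with low affinity for IGFs, stood at 11.76, 11.23 and 11.81 in dermal papilla. In hair germ it stood at 8.23, 8.18 and 8.17, nearly the same on days 43, 56 and 69, and in bulge at 9.09, 8.71 and 9.57. The 3 populations did not overlap at all. Dermal papilla was higher than hair germ by 3.41 ± 0.22, 10.6-fold (limma, adjusted p = 5.69e-07), and than bulge by 2.48 ± 0.22, 5.59-fold (limma, adjusted p = 5.26e-06). The difference of hair germ from bulge was -0.93 ± 0.22 (limma, adjusted p = 0.0129), lower in hair germ, a call that was lost without the day 43 bulge array (adjusted p = 0.0525) or the day 69 bulge array (adjusted p = 0.0914). It was also lost without the dermal papilla array of day 43 and the hair germ array of day 69 (adjusted p = 0.0536), and without the 3 arrays of high GAPDH ratio with population alone in the model (adjusted p = 0.126). The second probe set past the filter, 1423585_at, was called higher in dermal papilla against both populations as well, and gave -0.31 ± 0.41 for hair germ against bulge. It passed the filter only through the 3 dermal papilla arrays, so its dermal papilla calls are no separate check.

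Igfbp6 (1417933_at, chromosome 15) encodes a binding protein that prefers IGF2. It stood at 9.18, 9.52 and 7.66 in dermal papilla on days 43, 56 and 69, at 5.40, 5.89 and 6.23 in hair germ and at 6.81, 6.57 and 7.92 in bulge. Dermal papilla lay above hair germ throughout, but on day 69 it lay below bulge, at a signal of 187 against 227. The day 69 bulge array also had the highest summed signal of dermal fibroblast markers in bulge, 1331, whose part here was not tested. The difference from hair germ was 2.95 ± 0.50, 7.71-fold (limma, adjusted p = 0.000725), and from bulge 1.69 ± 0.50, 3.22-fold (limma, adjusted p = 0.0216). The bulge comparison was lost without the day 43 or the day 56 dermal papilla array (adjusted p = 0.103 and 0.142) and without the day 43 or the day 56 bulge array (adjusted p = 0.0921 and 0.135), and without the day 69 dermal papilla array the difference was 2.55. Leaving out the dermal papilla array of day 43 together with the hair germ array of day 69, or the 3 arrays of high GAPDH ratio with population alone in the model, also lost it (adjusted p = 0.126 and 0.0662). Hair germ differed from bulge by -1.26 ± 0.50 (limma, adjusted p = 0.102), a result that passed only without the day 69 dermal papilla array (adjusted p = 0.00672). The difference stayed at -1.26 there, and only the shared error and the adjustment changed.

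Igfbp2 (1454159_a_at, chromosome 1), a binding protein gene with no test here, lay below the median on all arrays but the day 43 hair germ array. It read 4.17, 5.18 and 5.18 in dermal papilla, 6.55, 5.20 and 5.74 in hair germ and 4.81, 5.29 and 4.95 in bulge. The highest value, 6.55, comes from the array with the highest GAPDH ratio. Igfbp2 lies next to Igfbp5 on chromosome 1.

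Igfbp5 (1452114_s_at, chromosome 1) encodes a binding protein held in the extracellular matrix. In dermal papilla it stood at 4.54 on day 43, 6.36 on day 56 and 8.72 on day 69, with signals of 7.19, 66.4 and 405. In hair germ it stood at 4.96, 5.48 and 4.25, and in bulge at 7.11, 7.43 and 6.88. Dermal papilla thus lay below its array median and below bulge on day 43, and above all bulge arrays on day 69. Over the 3 days dermal papilla differed from hair germ by 1.64 ± 0.73 (limma, adjusted p = 0.100) and from bulge by -0.60 ± 0.73 (limma, adjusted p = 0.576), and neither passed. Leaving out 1 dermal papilla array changed this. Without day 43 the difference from hair germ was 2.65 (adjusted p = 0.00763), and without day 69 the difference from bulge was -1.92 (adjusted p = 0.00413). Hair germ lay below bulge with no overlap, a difference of -2.24 ± 0.73 (limma, adjusted p = 0.0549), which passed under median centring (-2.45, adjusted p = 0.0293) and without the day 43 or day 69 dermal papilla array (adjusted p = 0.0144 and 0.00129). Leaving out a dermal papilla array kept the difference at -2.24 and changed only the shared error and the adjustment.

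Counted together, 6 of the 8 tested members were higher in dermal papilla than in hair germ and 0 lower, where 39.3% of all tested genes passed, 15.5% higher and 23.8% lower. Against bulge 7 of 8 were higher and 0 lower, where 35.1% of all genes passed, 16.1% higher and 19% lower. Between hair germ and bulge 1 member, Igf1r, was higher and 1, Igfbp7, lower, where 19.8% of all genes passed, 12.2% higher and 7.56% lower. Igf1 and Igf2 passed the filter only through the 3 dermal papilla arrays, and the same filter left out Igfbp2, which read lower in dermal papilla than in hair germ, at means of 4.85 and 5.83. The counts against hair germ and bulge thus describe the members that passed and are no support for the set as a whole. The comparisons of dermal papilla with hair germ and with bulge share the dermal papilla arrays. Calls for Igf1, Igf2, Igfbp3, Igfbp4 and Igfbp7 against both populations, and for Igfbp6 against hair germ, held under every alternative run.

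**Figure D2:**
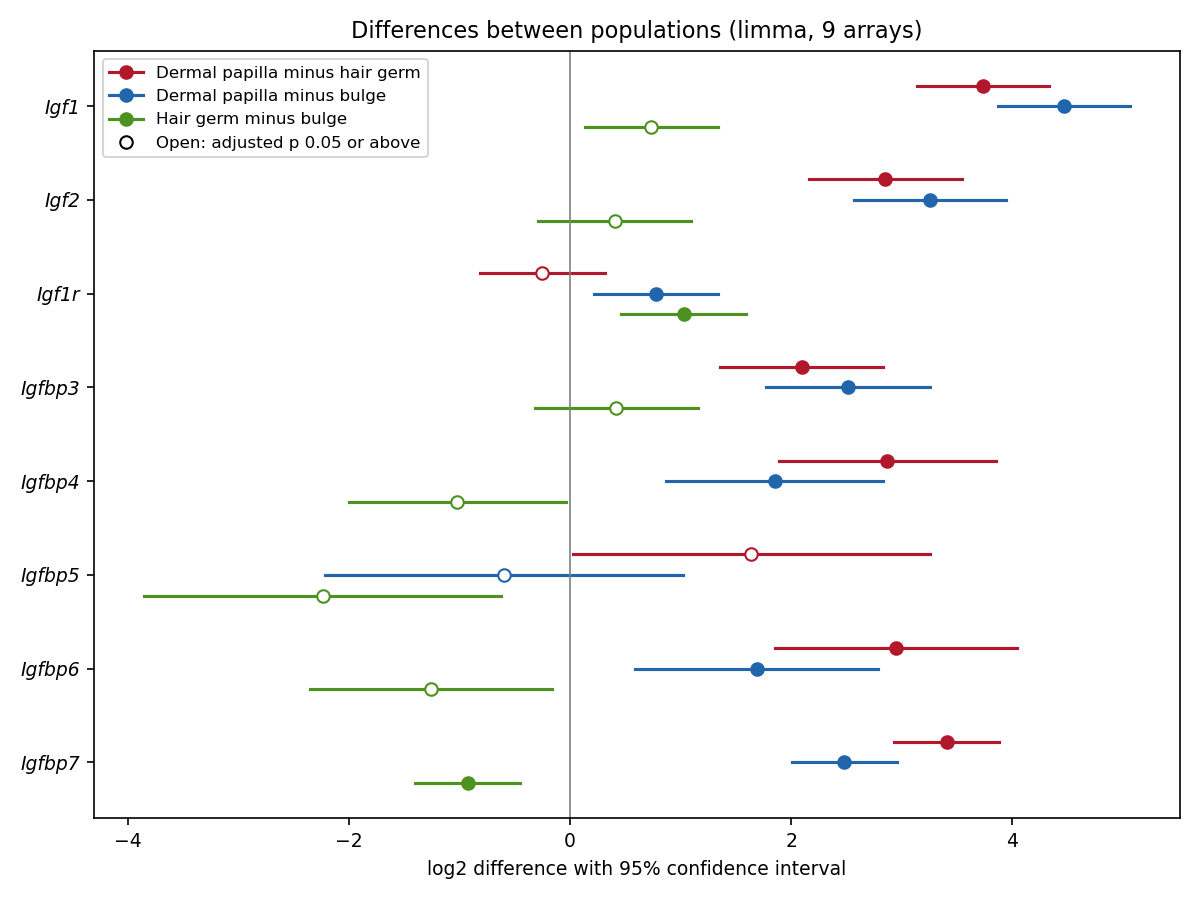
Difference between populations for the 8 tested members in log2 units, with the 95% confidence interval as a bar, for dermal papilla minus hair germ, dermal papilla minus bulge and hair germ minus bulge, and open points where the adjusted p is 0.05 or above. Igf1 in dermal papilla lies at 3.74 against hair germ and 4.47 against bulge, while Igf1r lies at -0.25 against hair germ.

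Change over the resting phase was asked next, by a straight line over postnatal day within each population, given as the fitted log2 difference between day 69 and day 43. In dermal papilla 3 of 7796 genes passed (0.0385%), and Igfbp5 was among them. Its fitted change was 4.18 ± 0.55, with a 95% interval of 2.96 to 5.40 (limma, adjusted p = 0.0455). The day 43 signal of 7.19 lay below its array's median of 41.4, so the size of this change depends on the pseudocount. The other 2 genes were Sostdc1, a BMP and WNT antagonist, at 3.32 (limma, adjusted p = 0.0233), and Trp63, the epithelial transcription factor p63, at -3.39 (limma, adjusted p = 0.0455), both named here because they were the whole of the count. The Igfbp5 call was lost with a pseudocount of 1 (adjusted p = 0.104), with no filter on low signals (0.11), with eBayes without a trend (0.061), with every probe set as a feature (0.0641) and without any 1 of the 3 dermal papilla arrays (0.0798 to 0.775). The fitted change was 3.66 to 5.63 across these alternatives. With a pseudocount of 64 it was 2.72 and was still called (adjusted p = 0.0182). In hair germ it was -0.71 ± 0.55 (limma, adjusted p = 0.573) and in bulge -0.24 ± 0.55 (limma, adjusted p = 1). The change in dermal papilla exceeded that in hair germ by 4.90 (limma, adjusted p = 0.168) and that in bulge by 4.42 (limma, adjusted p = 0.352), and neither difference passed. Without the day 43 or the day 56 hair germ array the first one did, at 6.64 and 4.90 (adjusted p = 0.0196 and 0.0371). In the comparison of dermal papilla with hair germ slopes 1 of 7796 genes passed (0.0128%), which was Sostdc1, and 0 members did.

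The second Igfbp5 probe set did not follow the first. It read 5.59, 5.65 and 5.61 in dermal papilla on days 43, 56 and 69, 4.95, 5.96 and 6.18 in hair germ and 5.54, 4.48 and 4.72 in bulge, and lay above the median on 1 array. Other measures also moved over the dermal papilla arrays. From day 43 to 69 the GAPDH ratio was 6.62, 4.13 and 3.77, the summed signal of the keratinocyte list 1562, 542 and 514, that of 7 leukocyte markers 118, 318 and 630, and that of 5 adipocyte markers 297, 642 and 1444. Of the leukocyte list 0, 2 and 1 genes lay above the median. Laptm5, at 5.14, 7.99 and 9.07, made up most of the sum on days 56 and 69 but not on day 43. Ptprc, which encodes CD45, was at 4.52, 4.04 and 4.49, near the floor. Of the adipocyte list 2 genes lay above the median on each dermal papilla array. They were Fabp4, a fatty acid carrier gene, at 7.83, 8.80 and 9.93, and Lpl, a lipase gene, at 6.08, 7.75 and 8.92, while Adipoq was at 4.19, 4.16 and 4.44. The part of these cells and of RNA quality in the Igfbp5 values was not tested.

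No other member passed in a population or in a comparison of slopes. Igf1 and Igf2 in dermal papilla had fitted changes of 0.65 ± 0.46 (limma, adjusted p = 0.763) and 0.96 ± 0.56 (limma, adjusted p = 0.692). The other 2 Igf1 probe sets gave larger changes, 1.33 ± 0.52 (limma, unadjusted p = 0.0290, adjusted p = 0.546) and 1.30 ± 0.52 (limma, unadjusted p = 0.0322, adjusted p = 0.557), which did not pass either. Igfbp6 in dermal papilla had a fitted change of -1.52 ± 0.62 (limma, unadjusted p = 0.0338, adjusted p = 0.569), where hair germ had 0.84 and bulge 1.11. In hair germ and in bulge 0 of 7796 genes passed, with 1086 and 163 at an unadjusted p below 0.05 (limma). For days 56 and 69 against day 43 over all populations 0 genes passed too, with 398 and 565 at an unadjusted p below 0.05. Simulated data had 200 changed genes and the spread of the model with population and day. There, 2% of genes with a slope of 1 log2 unit in dermal papilla and 63% of those with 2 were recovered. With only 3 genes called in the real data, the adjustment was stricter, so these shares may overstate what could be found.

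**Figure D3:**
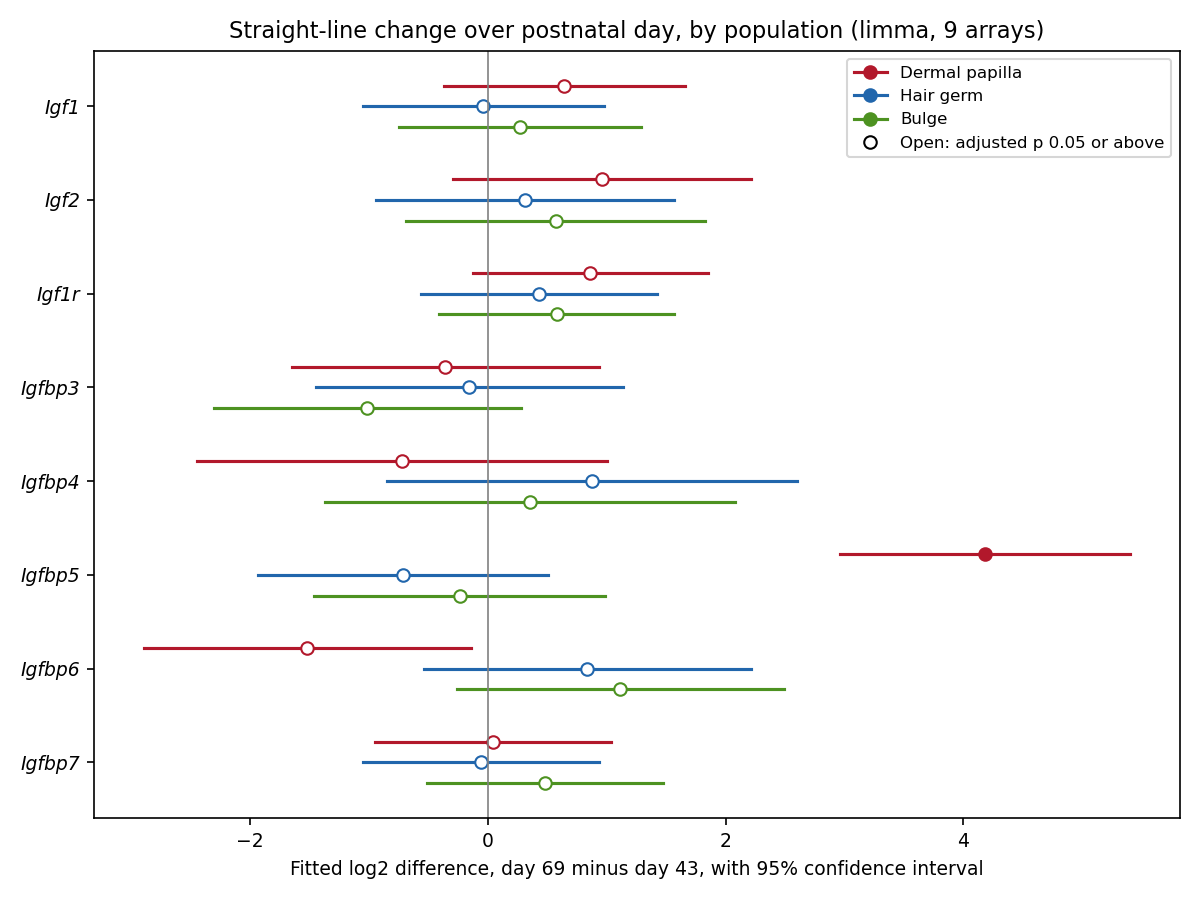
Fitted log2 difference between day 69 and day 43 for each tested member in dermal papilla, hair germ and bulge, with the 95% confidence interval as a bar and open points where the adjusted p is 0.05 or above. Igfbp5 in dermal papilla, at 4.18, is the only filled point, and Igfbp6 in dermal papilla lies at -1.52.

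The genes around the receptor were taken next. Of 8 receptors and adaptors, 7 were tested. Over all tested genes, 15.5% were higher and 23.8% lower in dermal papilla than in hair germ, and 16.1% and 19% than in bulge. The medians over all genes were -0.15 and -0.05. Of the 7, 3 were higher and 1 lower in dermal papilla than in hair germ, with a median of 0.20. Against bulge 4 of the 7 were higher and 1 lower, with a median of 0.70. Grb10 and Grb14, adaptors that bind insulin and IGF receptors and dampen their signal, were among the higher ones. Grb10 stood at 8.82, 8.98 and 9.41 in dermal papilla, 4.66, 6.03 and 5.62 in hair germ and 5.02, 4.97 and 4.98 in bulge, a difference of 3.64 from hair germ and 4.08 from bulge. It passed the filter only through the dermal papilla arrays, so the counts of this list describe the genes that passed. Grb14 was higher by 4.16 and 2.19, and its hair germ level differed from that of bulge by -1.97, the only gene of this list called there. Over all genes 12.2% were higher and 7.56% lower in hair germ than in bulge. Igf2r, which encodes the receptor that takes IGF2 up for breakdown, was higher in dermal papilla by 1.93 against hair germ and by 1.46 against bulge, at 8.98, 9.70 and 10.11 on days 43, 56 and 69. Gab1, an adaptor of receptor tyrosine kinases, was lower in dermal papilla by a log2 of -1.31 against hair germ and -1.69 against bulge. The insulin receptor substrate genes Irs1 and Irs2 passed in no comparison of populations.

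The proteases that cut IGF binding proteins, and their regulators, split between dermal papilla and hair germ. Of 8 listed genes 5 were tested. Against hair germ 3 were higher and 2 lower in dermal papilla, where 15.5% of all genes were higher and 23.8% lower. Against bulge 4 were higher and 0 lower, where 16.1% of all genes were higher and 19% lower. Pappa encodes pappalysin-1, the protease known for cutting IGFBP4. It stood at 8.37, 8.66 and 8.65 in dermal papilla, 5.59, 7.03 and 6.38 in hair germ and 5.46, 5.16 and 4.39 in bulge, so that no array of dermal papilla overlapped with the others. The difference was 2.23 ± 0.36 from hair germ (limma, adjusted p = 0.000497) and 3.56 ± 0.36 from bulge (limma, adjusted p = 1.55e-05). Stc2, which encodes an inhibitor of pappalysins, was higher by 2.32 and 2.92, at 6.58, 9.20 and 6.47 in dermal papilla on days 43, 56 and 69. The size of the Stc2 differences thus leans on the day 56 array. Igfbp4 was lowest in dermal papilla on that array, as were Igfbp3 and Igfbp7, and no link between these genes was tested. Htra3, a serine protease gene, was higher by 3.06 and 3.36. Stc2 and Htra3 passed the filter only through the dermal papilla arrays. The counts against hair germ and bulge thus describe the genes that passed and are no support for the list.

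Htra1, which encodes a serine protease known to cut IGFBP5, went the other way. It stood at 8.68, 9.67 and 9.62 in dermal papilla, 12.67, 11.82 and 11.72 in hair germ and 9.49, 8.88 and 8.94 in bulge. It was lower in dermal papilla than in hair germ by a log2 of -2.75 and higher in hair germ than in bulge by 2.97. Adamts1, a metalloprotease gene, was likewise lower in dermal papilla than in hair germ by a log2 of -2.16 and higher in hair germ than in bulge by 3.15. With Pappa at 1.33, 3 of the 5 tested genes were higher in hair germ than in bulge and 0 lower. Over all genes 12.2% were higher and 7.56% lower there. The median of the 5 was 1.33, against 0.10 over all genes.

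Genes downstream of the receptor came next. Of 18 genes of the PI3K-AKT-FOXO arm 13 were tested, and 2 were higher in dermal papilla than in hair germ, 1 higher than in bulge and 0 lower in either. Over all genes 15.5% and 16.1% were higher and 23.8% and 19% lower. The higher ones of the list were Pik3r1, a PI3K regulatory subunit gene, at 2.38 against hair germ, and Akt1, the kinase gene, at 0.72 against hair germ and 0.88 against bulge. Between hair germ and bulge Pik3r1 differed by -1.80, lower in hair germ, the 1 call of the 13 there. Over all genes 12.2% were higher and 7.56% lower in that comparison. The median of this list was -0.08 against hair germ and 0.20 against bulge, near the -0.15 and -0.05 of all genes.

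The growth hormone axis, which drives Igf1 in liver, was tested in full, with 6 of 6 genes. In dermal papilla 4 were higher and 1 lower than in hair germ, and 5 higher and 0 lower than in bulge, with medians of 1.25 and 1.36. For all tested genes, 15.5% were higher and 23.8% lower than in hair germ, and 16.1% and 19% than in bulge. Their medians were -0.15 and -0.05. The difference between the growth hormone list and others was not tested. Socs2, an inhibitor of growth hormone receptor signalling that is itself induced by STAT5, stood at 10.78, 11.87 and 11.02 in dermal papilla, 6.58, 7.10 and 6.01 in hair germ and 6.01, 5.97 and 6.42 in bulge. It was higher by 4.66 and 5.09. Stat5a and Stat5b, the transcription factor genes of the axis, were higher by 1.12 and 1.41 against hair germ and by 1.70 and 1.57 against bulge. Jak2, the kinase gene, was higher by 1.37 against hair germ. Ghr, the receptor gene, stood at 9.17, 8.66 and 8.09 in dermal papilla, at 9.59, 10.13 and 10.30 in hair germ, where it was highest, and at 7.20, 7.67 and 7.75 in bulge. It was lower in dermal papilla than in hair germ by a log2 of -1.37, higher in hair germ than in bulge by 2.46, and the only call of the list there. Over all genes 12.2% were higher and 7.56% lower in hair germ than in bulge.

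**Figure D4:**
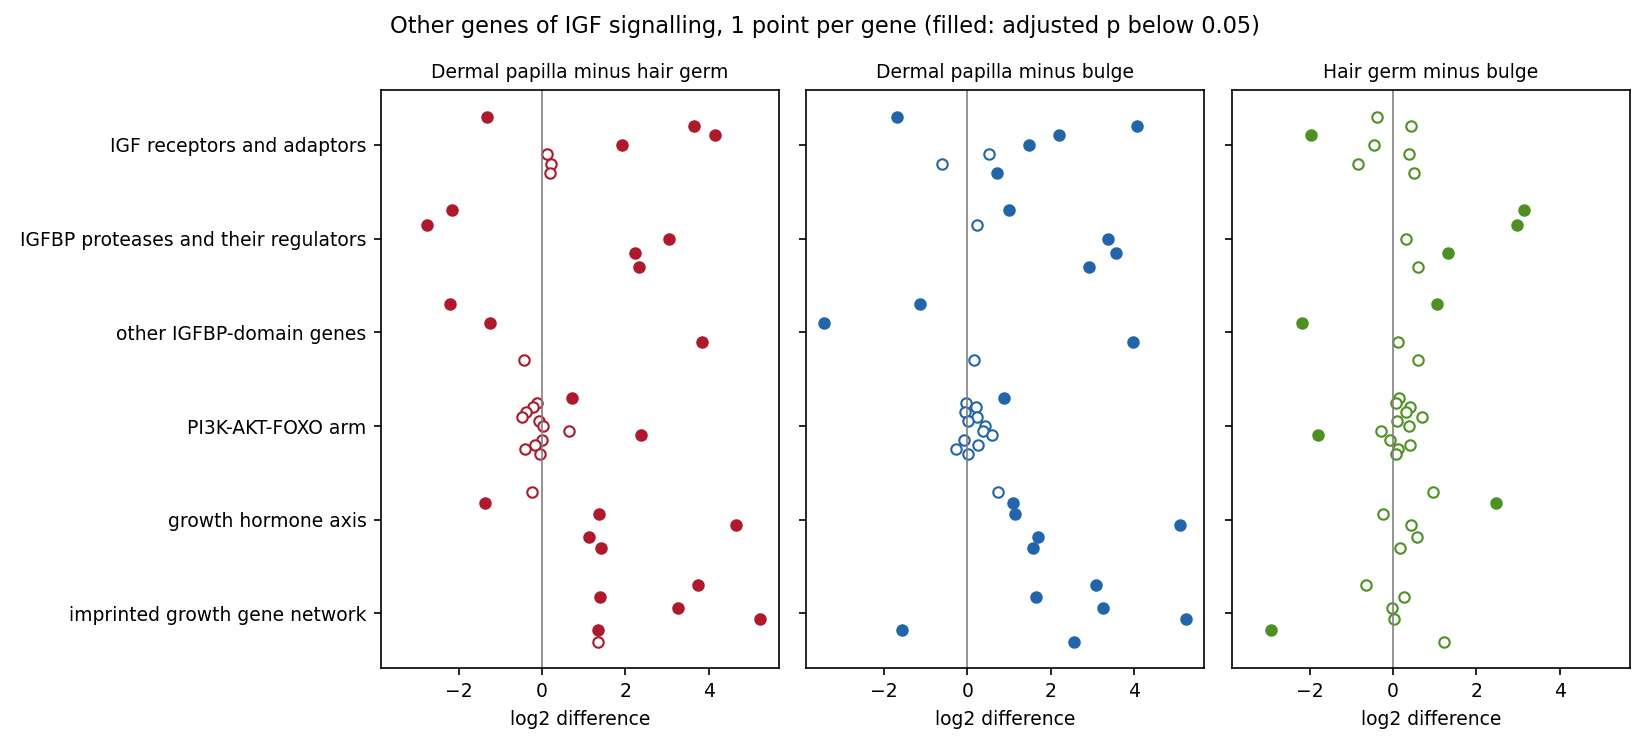
Log2 difference of each tested gene of 6 lists around the members, for dermal papilla minus hair germ, dermal papilla minus bulge and hair germ minus bulge, with filled points where the adjusted p is below 0.05. Growth hormone axis genes lie mostly to the right in the dermal papilla panels, with Socs2 at 4.66 and 5.09, while the 13 genes of the PI3K-AKT-FOXO arm lie mostly near 0.

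Lastly, genes were ranked by how closely their levels followed each member over the 9 arrays, which form 3 populations and share their scaling. Igf1 was followed most closely by Cd302, Mef2c and Cd1d1 (Pearson's r 0.997, 0.996 and 0.994) and Igf2 by Cdh22, Rasgrp2 and Cenpx (0.990, 0.989 and 0.988). Igf1r was followed by Acta2 at 0.940, with Vps16 and Acss1 next. For the binding proteins the closest were Ppp1r8 for Igfbp3 (0.976), Inpp1 for Igfbp4 (0.968), 1190005I06Rik for Igfbp5 (0.966), Hpgd for Igfbp6 (0.971) and Pdgfra, a fibroblast receptor gene, for Igfbp7 (0.982). Among members, Igf1 and Igf2 correlated at 0.964, Igf1 and Igf1r at 0.402 and Igf1 and Igfbp5 at 0.128. These values describe 9 arrays and carry no test.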

How the data were processed

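Gene expression was measured on 9 arrays. The deposited values are linear intensity signals of probe sets, for which the submitters' processing notes name GCOS and MAS5. The scaling target and detection calls are not given in the sources used here. Arrays give no count depth, so their number limits the precision.

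The scale used is log2(signal + 16), with no scaling added and 64 control probe sets left out. Probe sets had to exceed the median of the array (controls left out) on 3 or more arrays, and 12801 did. Of 22690 probe sets 20380 pointed to 1 gene, 691 to several and 1555 to none in the annotation of the array, and 20351 of the first matched the current gene table. The brightest kept probe set stood for a gene.

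Tests used R 4.3.3 and limma 3.58.1 with eBayes (with trend), two-sided, and Benjamini-Hochberg adjustment over 7796 genes. One model had population and day as additive terms (the day being the replicate number), the other a straight line over day in each population. Whether arrays of a day are paired is not stated, and the correlation of same-day deviations between populations was -0.10 to 0.18, against -0.26 to 0.24 for different days. Separate animals are not stated, so p-values measure the spread between these arrays.

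All members were named, as were the 3 genes with the highest Pearson's r to each tested member and up to 3 genes with the largest called difference per list and contrast. Counts of 5 or fewer could be spelled out. The members and lists were chosen with earlier results of these data known. Alternatives covered the pseudocount, scaling, filter, probe set choice, eBayes trend, day term and arrays left out. The steps were tested on simulated data with 200 of 7796 genes changed. For dermal papilla against hair germ, 52% of genes changed by 1 log2 unit and 99% of those changed by 2 were recovered, and for hair germ against bulge 51% and 100%. Promoter windows came from RefSeq (GRCm38.p6) by symbol for all 9 members, and no protein sequence was used here.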

Additional observations from a re-analysis of the deposited data

How the results depend on the processing

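Of 16 called member results 11 were called under every alternative, and 5 were lost under at least 1: Igf1r against bulge in both comparisons, Igfbp6 in dermal papilla against bulge, Igfbp7 in hair germ against bulge and the Igfbp5 change over days in dermal papilla. None of the called results changed sign, and 7 that had not passed did so under at least 1 alternative. Most causes were not tested. Dropping the replicate block (day) left 6 members called against hair germ and lost Igf1r in dermal papilla against bulge (log2 0.78, adjusted p = 0.0644), and it changed no other member call. With every kept probe set as a feature, which raises the number tested, 4625, 4124 and 2323 features were called for dermal papilla against hair germ, dermal papilla against bulge and hair germ against bulge, and 1000 genes for the last without the 3 arrays of high GAPDH ratio and with population alone. For hair germ against bulge 1 member was called under quantile normalization, the stricter filter (which removed Igf1r), without both the dermal papilla array of day 43 and the hair germ array of day 69, and without the high GAPDH arrays. Leaving out 1 array at a time gave 783 to 1609 genes and 0 to 4 members there. For the change over days in dermal papilla, 17 genes were called with a pseudocount of 64, 7 with 1, 5 under quantile normalization and the stricter filter, and 0 with no filter or no eBayes trend. Members called there were 0 with a pseudocount of 1, no filter, no trend or every probe set as a feature. Leaving out 1 array gave 1 to 13 genes and 0 to 1 members there, 0 to 42 genes for the change in hair germ, 0 to 1 for dermal papilla minus bulge and 0 to 13 for hair germ minus bulge. For dermal papilla minus hair germ changes, 0 genes were called with a pseudocount of 64 or 1, median centring, no filter or no trend, 2 with every probe set, and 0 to 72 genes and 0 to 1 members without 1 array. Of the lists, without both the dermal papilla array of day 43 and the hair germ array of day 69, growth hormone axis genes higher in dermal papilla numbered 3 against hair germ and 4 against bulge, receptors and adaptors 3 against bulge, PI3K-AKT-FOXO genes 1 against hair germ, protease genes 5 against bulge, and protease genes higher in hair germ than in bulge 2; this setting was chosen after seeing the data for the lists. Scaling moved the median of all genes for dermal papilla minus hair germ to 0.01 under quantile normalization and to 0.00 under median centring, against -0.15, and the calls to 1531 higher and 1499 lower or to 1450 and 1485, against 1207 and 1855. For hair germ minus bulge the calls were 687 higher and 799 lower or 610 and 944, against 952 and 589, with medians of -0.05 and -0.11 against 0.10.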

Other observations

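Igf2 belongs to a group of imprinted growth genes, of which 6 of 9 listed were tested. In dermal papilla 5 were higher and 0 lower than in hair germ, where 15.5% of all genes were higher and 23.8% lower. Against bulge 5 were higher and 1 lower, where 16.1% of all genes were higher and 19% lower. The medians were 2.33 and 2.83, against -0.15 and -0.05 over all genes. Ndn, which encodes the growth suppressor necdin, stood at 11.03, 10.87 and 10.84 in dermal papilla on days 43, 56 and 69, at 5.47, 6.92 and 4.65 in hair germ and at 6.12, 5.58 and 5.30 in bulge. It was higher by a log2 of 5.23 and 5.25. Cdkn1c, which encodes the cell cycle inhibitor p57, was higher by 3.74 and 3.08, and the noncoding RNA gene Meg3 by 3.27 and 3.24. In dermal papilla both were lowest on day 56, as Igfbp4 was, at 7.41 for Cdkn1c and 7.88 for Meg3. Peg3 was the exception. It stood at 9.39, 8.74 and 9.14 in dermal papilla, 7.31, 7.95 and 7.96 in hair germ and 10.88, 10.92 and 10.20 in bulge, so that it was lowest in hair germ, with differences of -1.58 for dermal papilla against bulge and -2.93 for hair germ against bulge. Cdkn1c passed the filter only through the dermal papilla arrays, so the counts of this list describe the genes that passed. Imprinted expression by parental allele was not measured.

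The CCN genes encode matrix proteins that carry an IGF binding domain without being counted among the binding proteins. Of 9 genes listed with such a domain 4 were tested. Ccn3 was higher in dermal papilla, by 3.84 against hair germ and 3.97 against bulge, at 7.91, 9.17 and 8.80 on days 43, 56 and 69. It passed the filter only through the dermal papilla arrays. Ccn2, also called connective tissue growth factor, stood at 8.40, 8.28 and 9.17 in dermal papilla, at 8.91, 10.66 and 10.02 in hair germ and at 11.76, 11.96 and 12.44 in bulge, where it was highest. Its difference from bulge was -3.43 in dermal papilla and -2.19 in hair germ. Ccn1 was lower in dermal papilla than in hair germ by a log2 of -2.20, and its difference of 1.06 between hair germ and bulge passed the test as deposited but not under quantile normalization or median centring.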
